A study of Homo sapiens with 12 samples.

Results

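The cohesin loader and core ring genes were followed through all libraries of a study of LAST-seq, a single-cell RNA-seq assay in which RNA from each well is amplified linearly by in vitro transcription. They were chosen by name as MAU2 (also called SCC4) and NIPBL for the loader, SMC1A, SMC3 and RAD21 for the ring, and STAG1 and STAG2 for its peripheral subunit. All 7 genes were found among the 32973 genes listed in the tables of unique molecular identifiers (UMIs), and all 7 passed the minimum mean of 0.1 UMI per cell in both comparisons. The question asked of them was whether the other genes changed when 1 partner of the loader was lost. One experiment used eHAP1, an established haploid human line derived from leukaemia cells, as WT cells and as SCC4 KO cells in which the MAU2 gene had been cut by a Cas9 ribonucleoprotein. Cells of each genotype came from a population grown from a single cell, were cultured with 10-Deacetylbaccatin-III to keep them haploid, and were flow-sorted through a gate for live haploid cells in G1 phase. The labels give 1 sample per genotype, sequenced as 2 batches of 80 indexed cells. They name no clone, so they do not show whether both batches of a genotype came from the same one. A difference between clones cannot be told apart from the knockout, and p-values measure only the spread between batches. The methods give PCR and a western blot as the checks of the knockout. The other experiment used HEK293T, a transformed human embryonic kidney line, as live single cells by LAST-seq and by CEL-seq2 (2 pools of 10 cells each), as single-cell lysate (10 indexed lysates a library), and as 15-pg aliquots of total RNA, with SMART-seq as a full-length assay without UMIs.

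Cohesin is a ring of SMC1A, SMC3 and the kleisin RAD21 that holds sister chromatids together and extrudes DNA loops in interphase. STAG1 and STAG2 are alternative subunits that bind RAD21, and a complex carries one or the other. NIPBL and MAU2 form the heterodimer that loads cohesin onto DNA. NIPBL stimulates the ATPase of the ring, and MAU2 binds and stabilizes the amino terminus of NIPBL.

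The cut made in the knockout shows which part of the MAU2 transcript the counts can see. The guide was read from the oligonucleotides of the study and placed on hg38, where it had 1 exact match followed by an NGG motif, at chr19:19338850-19338869 on the plus strand. It is printed with the 3 bases that follow it in the genome in capitals, and below it is exon 5 of the 19 exons of the MAU2 transcript ENST00000262815.13 (chr19:19338845-19338939, plus strand) with the guide in capitals.
guide: gcacacgcttgagaaggaccTGG
exon 5: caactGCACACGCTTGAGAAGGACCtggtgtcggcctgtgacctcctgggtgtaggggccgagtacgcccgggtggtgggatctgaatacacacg
Cleavage 3 bases before the motif falls after base 19338866, at codon 160 of 613, or 26.0% of the coding sequence. That is 4336 bases before the end of the 4845-base transcript. LAST-seq counts the 3′ end of transcripts, so the UMIs of MAU2 measure the amount of its transcript and do not read the edit.

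The eHAP1 tables held 73 and 75 WT cells and 77 and 76 SCC4 KO cells, with median UMIs per cell of 89978 and 143882 for WT and of 81789 and 152433 for SCC4 KO. The LAST-seq pools of HEK293T cells held medians of 142023 and 155214 UMIs per cell, and those of CEL-seq2 166467 and 150127. Levels are given as counts per 1000000 UMIs of a library (CPM), and intervals on them are exact Poisson intervals at the 95% level that cover counting error only. Between the eHAP1 batches, 70 to 75 well indices were shared by any 2 libraries, since the libraries carry the same index set, and 0 cells had identical counts. In genes with at least 2000 UMIs, the batches of a genotype differed by a median of 0.451 counting SDs in WT and 0.249 in SCC4 KO, where counting alone gives 0.674. The same measure was 2.77 for the LAST-seq pools and 8.86 for the CEL-seq2 pools of HEK293T cells. Below 2000 UMIs the eHAP1 batches differed by more than counting, by 0.766 and 0.777 counting SDs from 500 to 2000 UMIs, 1.46 and 1.24 from 100 to 500 and 1.88 and 1.56 from 20 to 100, against 1.81, 1.61 and 1.36 for the LAST-seq pools. SMC1A, RAD21 and STAG2 have over 2000 UMIs in both genotypes, and MAU2, NIPBL, SMC3 and STAG1 have fewer. The study removed batch effects with ComBat-seq before its burst analysis, and its methods do not say whether the deposited counts come before or after that step. Since the batches differ by less than counting allows above 2000 UMIs, p-values from them may be too small for SMC1A, RAD21 and STAG2. As edgeR shares its spread among genes of like level, this may reach SMC3 too. Its WT batches differed by 0.0821 counting SDs and its KO batches by 1.38. A second edgeR test took the spread from the LAST-seq pools of HEK293T cells for all genes, and for the genes below 2000 UMIs it is only an alternative from another cell line. Those pools hold 10 cells each, differ in spike-in mix, and the methods describe no cell cycle gate for them. The biological coefficient of variation so assumed was 0.262 for SMC3, 0.206 for SMC1A and 0.193 for RAD21. From the eHAP1 batches it was 0.0487, 0.0388 and 0.0389, so small changes could not pass the second test. Its result is given for MAU2 and NIPBL and where a call was lost.

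MAU2 transcripts were strongly reduced in the SCC4 KO cells. WT cells held 44.2 and 41.2 CPM in batches 1 and 2, and SCC4 KO cells 9.17 and 14.5 CPM. The SCC4 KO values lay far below both WT batches, and the KO batches differed from each other by 3.04 counting SDs. By edgeR's quasi-likelihood test the level fell to 0.274 of WT (95% interval 0.205 to 0.365), a log2 fold change of -1.87 (SE 0.18, Benjamini-Hochberg adjusted p = 0.00015). With the spread of the HEK293T pools in edgeR, the log2 fold change was -1.91 with an adjusted p of 0.0048. The transcript remained detectable at 59 and 169 UMIs in the KO batches.

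NIPBL, the loader subunit that stimulates the ATPase of the ring, did not change detectably in the SCC4 KO cells. WT cells held 30.4 and 39.8 CPM, and SCC4 KO cells 36.7 and 29.6 CPM. The values of the genotypes overlapped, with SCC4 KO above WT in batch 1 and below it in batch 2. The log2 fold change was -0.19 with a 95% interval from -0.57 to 0.19 (edgeR, Benjamini-Hochberg adjusted p = 0.46). This interval, from the spread between the eHAP1 batches, leaves room for a fall to 0.673 of the WT level or a rise to 1.14 of it. It leaves out a doubling, but the log2 ratio of KO batch 1 to WT batch 1 alone, 0.27, lies above its upper end. With the spread of the HEK293T pools in edgeR, the log2 fold change was -0.16 with a wider SE of 0.44. The sign of the log2 fold change depended on the batches used, as the value was 0.10 without WT batch 2 and 0.03 without KO batch 2. The WT batches differed by 3.36 counting SDs and the KO batches by 2.53. Of the UMIs of both loader genes, MAU2 took 59 of 295 and 169 of 515 in the KO batches, against 326 of 550 and 507 of 997 in the WT batches.

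**Figure D1:**
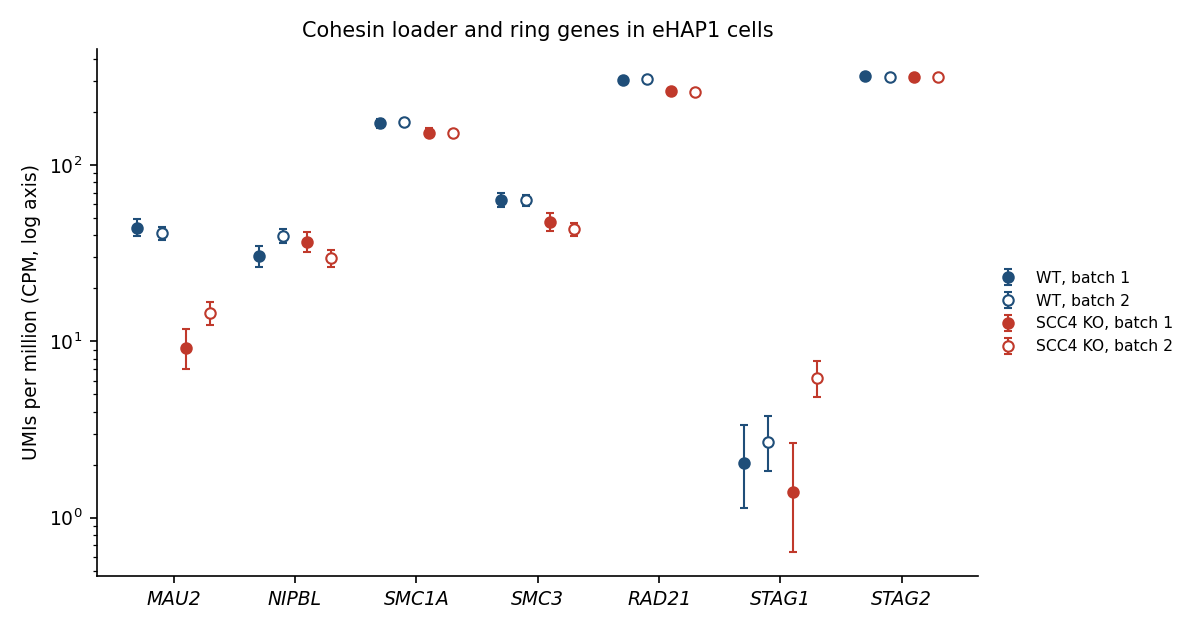
Level of each gene in CPM (log axis) in the 4 eHAP1 batches, with exact Poisson 95% intervals. MAU2 is at 41.2 to 44.2 in WT and at 9.17 to 14.5 in SCC4 KO, whereas the points of STAG2 lie between 316.0 and 320.9 in all batches.

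The ring subunits were slightly lower in the SCC4 KO cells. SMC3, one of the paired ATPase arms, was at 63.6 and 63.3 CPM in WT and at 47.9 and 43.3 CPM in SCC4 KO. SMC1A, the other arm, was at 173.1 and 176.0 CPM in WT and at 153.6 and 152.6 CPM in SCC4 KO. RAD21, which closes the ring between them, was at 305.0 and 310.1 CPM in WT and at 263.7 and 262.9 CPM in SCC4 KO. In each of the 3 genes both KO batches lay below both WT batches, but the batch values also did not overlap for 64.8% of all genes tested. The log2 fold change was -0.56 for SMC3 (SE 0.077, edgeR, Benjamini-Hochberg adjusted p = 0.00099). It was -0.26 for SMC1A (SE 0.058, edgeR, adjusted p = 0.012) and -0.29 for RAD21 (SE 0.059, edgeR, adjusted p = 0.0068). These falls were to 0.680, 0.835 and 0.816 of the WT level. All 3 calls were lost with the spread of the HEK293T pools, where the adjusted p-values in edgeR were 0.76, 0.94 and 0.90. For changes of this size that loss follows from the wider spread assumed, so it does not show that the genes are unchanged. The call of SMC1A was also lost without KO batch 1 (edgeR, adjusted p = 0.13), without WT batch 2 (0.061) and in cells thinned to 50000 UMIs (0.093), and that of RAD21 without KO batch 1 (0.15). When the batches of a genotype were summed, the ratio of SCC4 KO to WT was 0.708 for SMC3 (exact counting interval 0.648 to 0.774), 0.874 for SMC1A (0.831 to 0.919) and 0.854 for RAD21 (0.822 to 0.887). By the same measure NIPBL was at 0.885 (0.792 to 0.989), STAG1 at 1.83 (1.27 to 2.68) and STAG2 at 0.991 (0.956 to 1.03). These intervals leave out the spread between batches. Those of NIPBL and STAG1, which did not pass the edgeR test, exclude 1 as well.

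STAG2 had the most UMIs of the 7 genes in all 4 eHAP1 batches and STAG1 the fewest. Since a UMI marks 1 transcript end, levels of different genes were set side by side without dividing by length. Such an order holds for LAST-seq counts only. In HEK293T cells SMC3 was at 62.5 and 56.3 CPM by LAST-seq and at 375.8 and 319.4 CPM by CEL-seq2. The order in WT was STAG2, RAD21, SMC1A, SMC3, MAU2, NIPBL and STAG1. The counting intervals of STAG2 and RAD21 overlapped in both WT batches, and those of MAU2 and NIPBL in batch 2, whereas the other neighbours were apart in both. STAG2 was at 320.9 and 318.8 CPM in WT and at 318.1 and 316.0 CPM in SCC4 KO. The batch values did not overlap, but their counting intervals did. The log2 fold change was -0.08 with a 95% interval from -0.21 to 0.05 (edgeR, Benjamini-Hochberg adjusted p = 0.34). It passed the threshold without WT batch 1, at -0.12 (edgeR, adjusted p = 0.010). STAG1 was at 2.04 and 2.68 CPM in WT and at 1.40 and 6.17 CPM in SCC4 KO, from 15, 33, 9 and 72 UMIs. KO batch 2 was the highest of the 4 batches and KO batch 1 the lowest. The log2 fold change was 0.62 with a 95% interval from -1.22 to 2.47 (edgeR, adjusted p = 0.64), and it was -0.77 without KO batch 2. Of the UMIs of both subunits, STAG2 took 99.4% and 99.2% in the WT batches and 99.6% and 98.1% in the KO batches. This share depended on the assay. In HEK293T cells it was 99.15% and 98.58% by LAST-seq and 90.12% and 89.17% by CEL-seq2.

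**Figure D2:**
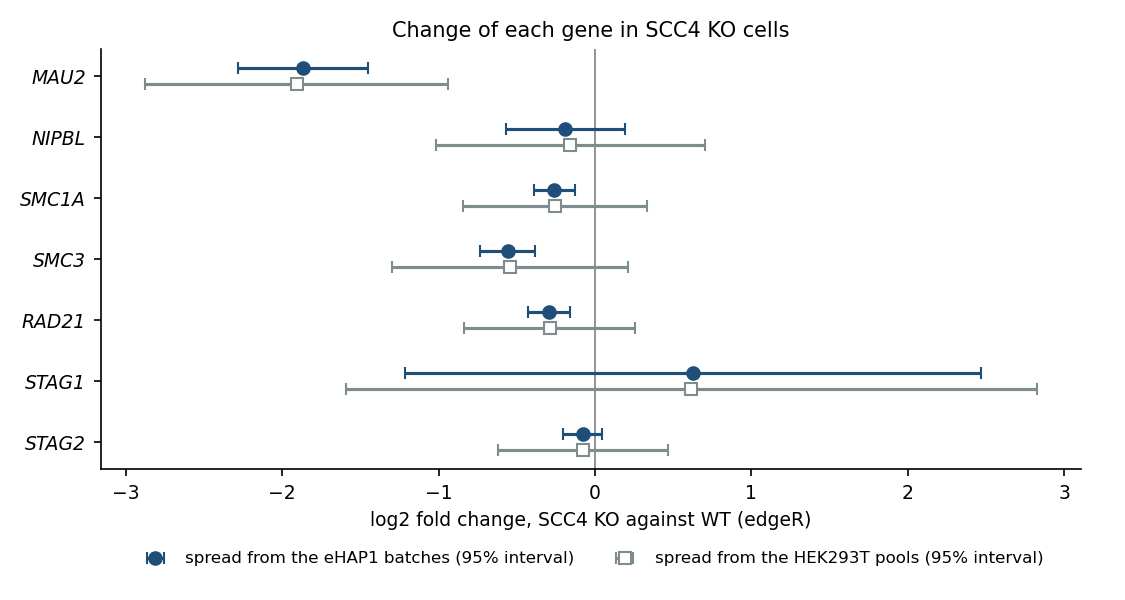
Log2 fold change of each gene in SCC4 KO against WT eHAP1 cells by edgeR, with 95% intervals from the spread between the eHAP1 batches (filled circles) and from the spread between the LAST-seq pools of HEK293T cells (open squares). The interval of MAU2 lies below 0 in both, whereas those of SMC3, RAD21 and SMC1A, at -0.56, -0.29 and -0.26, reach across 0 with the wider spread.

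Of the 7 genes, 4 passed the edgeR test at an adjusted p under 0.05, all of them lower in SCC4 KO. Across all 15574 genes tested, 28.4% passed, with 12.6% higher and 15.8% lower, so a call in this comparison was common. Their median log2 fold change was -0.26, against -0.02 over all genes tested. With the spread of the HEK293T pools, 1 of the 7 genes and 688 genes in all passed. MAU2 was also the only 1 of the 7 past 2-fold in every pairing of a KO with a WT batch, a rule that 8.55% of all genes met and 3.99% met as lower. The batch values of the genotypes did not overlap for 5 of the 7 genes and for 64.8% of all genes. Between batches of the same genotype, 17.7% of all genes in WT and 15.6% in SCC4 KO were past 2-fold.

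Genes that release, acetylate, protect or cleave cohesin gave calls in both directions. Of 10 genes, 5 were lower, 1 was higher and 4 did not pass the edgeR test, beside 15.8% lower and 12.6% higher over all genes tested. Their median log2 fold change was -0.31. SGO1, which protects centromeric cohesin in mitosis, was at 18.7 and 28.1 CPM in WT and at 6.68 and 4.11 CPM in SCC4 KO, a log2 fold change of -2.23 (edgeR, adjusted p = 0.0015). PDS5A, a regulator that binds the ring together with WAPL, was at 114.4 and 117.6 CPM in WT and at 60.2 and 60.5 CPM in SCC4 KO, a log2 fold change of -1.01 (edgeR, adjusted p = 2.3e-05). CDCA5, the sororin that counters WAPL, was at 42.1 and 39.6 CPM in WT and at 26.3 and 24.1 CPM in SCC4 KO, a log2 fold change of -0.77 (edgeR, adjusted p = 0.00068). The single rise in this group was ESPL1, the separase that cleaves RAD21, named for its direction after its values were seen, with a log2 fold change of 0.61 (edgeR, adjusted p = 0.0016). WAPL itself, the release factor, was at 19.4 and 14.6 CPM in WT and at 16.3 and 21.7 CPM in SCC4 KO and did not pass. With the spread of the HEK293T pools in edgeR, SGO1 alone of the 10 passed (adjusted p = 0.019), whereas PDS5A (0.074), CDCA5 (0.60) and ESPL1 (0.72) lost their calls.

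Among loop boundary and loader partner genes, CTCF, which stops cohesin at loop boundaries, was at 63.4 and 61.3 CPM in WT and at 65.9 and 65.2 CPM in SCC4 KO and did not pass. Of the 4 meiotic forms, 1 was tested. This was REC8, the meiotic kleisin, with 7 and 19 UMIs in the WT batches and 6 and 20 in the KO batches, which did not pass. Among 14 genes of condensin and the SMC5/6 complex, the relatives of cohesin, 4 were lower, 1 was higher and 9 did not pass, beside 15.8% lower and 12.6% higher over all genes tested. The 3 with the largest change among those that passed were SMC5, NCAPH and SMC4, with log2 fold changes of -1.32, -1.14 and -0.81 and edgeR adjusted p-values of 0.0065, 0.012 and 4.9e-05. With the spread of the HEK293T pools in edgeR, none of the calls in the condensin and SMC5/6 list was kept. The adjusted p-values were then 0.31 for SMC5, 0.35 for NCAPH and 0.078 for SMC4.

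Genes around MAU2 and copies of the 7 genes were looked at for shared reads. Within 100 kb of MAU2 on chromosome 19, 2 of 10 annotated genes were tested. GATAD2A, a subunit of the NuRD complex, was at 67.3 and 62.6 CPM in WT and at 89.1 and 89.1 CPM in SCC4 KO, a log2 fold change of 0.39 (edgeR, adjusted p = 0.0014), and SUGP1 did not pass (edgeR, adjusted p = 0.083). The call of GATAD2A was lost with the spread of the HEK293T pools (edgeR, adjusted p = 0.88). Of 6 pseudogenes, divergent and antisense transcripts of the 7 genes, 2 were tested and 0 passed by edgeR, with 1 at an unadjusted p under 0.05. This was NIPBL-DT, the divergent transcript at the NIPBL promoter, at 4.34 and 5.20 CPM in WT and at 8.86 and 10.9 CPM in SCC4 KO (edgeR, adjusted p = 0.11). SMC3P1, a pseudogene of SMC3, had 2, 3, 5 and 12 UMIs in the 4 batches, beside 308 to 779 UMIs of SMC3. Whether counting used the strand is not given in the sources used here, and RAD21, SMC1A, STAG1 and STAG2 overlap genes on the opposite strand.

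The gate for G1 phase was set beside cell cycle markers. The 10 S-phase markers summed to between 1036 and 1043 CPM, and the 10 markers of G2 and mitosis to between 788.5 and 803.7 CPM, in all 4 batches. Of these, 8 S-phase markers were tested, with 2 higher and 2 lower in SCC4 KO, and 9 markers of G2 and mitosis, with 4 higher and 3 lower. Over all genes tested, 12.6% were higher and 15.8% lower. The close sums thus held single markers that were called in both directions. The 4 markers listed for HEK293T (PAX2, LHX1, NEFL and NEFM) summed to 22.5 and 24.8 CPM in WT and to 60.5 and 58.4 CPM in SCC4 KO. There 3 of 3 tested were higher, beside the same 12.6% over all genes tested. Of these, NEFL and NEFM had 0 UMIs in both WT batches. With the spread of the HEK293T pools, 1 of the HEK293T markers, none of the S-phase markers and 1 marker of G2 and mitosis passed. The part of these markers in the changes of the 7 genes was not tested. In the HEK293T cells themselves, the 4 markers summed to 29.48 and 19.21 CPM by LAST-seq and to 88.15 and 17.86 CPM by CEL-seq2. By LAST-seq the sum thus did not set HEK293T cells apart from eHAP1 cells. PAX2 had 0 and 2 UMIs in the LAST-seq pools of HEK293T cells and none by CEL-seq2. LHX1 had 0 and 12 UMIs by LAST-seq and 3 and 1 by CEL-seq2, and NEFM 0 and 0 against 16 and 3. NEFL was found there at 42 and 15 UMIs with LAST-seq and at 118 and 22 UMIs with CEL-seq2.

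In single eHAP1 cells, the loss of MAU2 was seen as fewer UMIs per cell and more cells with none. After each cell was thinned to 50000 UMIs, which left out 1, 2, 1 and 0 shallower cells, WT cells had a median of 2 MAU2 UMIs in both batches. SCC4 KO cells had a median of 0 in batch 1 and 1 in batch 2. Cells with at least 1 MAU2 UMI made up 91.7% and 84.9% of thinned WT cells and 32.9% and 57.9% of thinned SCC4 KO cells. The exact binomial 95% intervals were 82.7% to 96.9% and 74.6% to 92.2% in WT, and 22.5% to 44.6% and 46.0% to 69.1% in SCC4 KO. In cells as deposited the shares were 97.3% and 94.7% in WT and 42.9% and 92.1% in SCC4 KO, where batch 2 was deeper.

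For NIPBL the shares of thinned cells with a UMI overlapped between the genotypes, at 63.9% and 83.6% in WT and at 90.8% and 71.1% in SCC4 KO. For SMC3 they were 94.4% and 97.3% in WT and 89.5% and 79.0% in SCC4 KO. STAG1 was detected in 8.33% and 8.22% of thinned WT cells and in 3.95% and 23.7% of thinned SCC4 KO cells. SMC1A, RAD21 and STAG2 had a UMI in every cell of all 4 batches. These libraries hold no cell type that lacks the genes, so no background share could be given beside these.

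**Figure D3:**
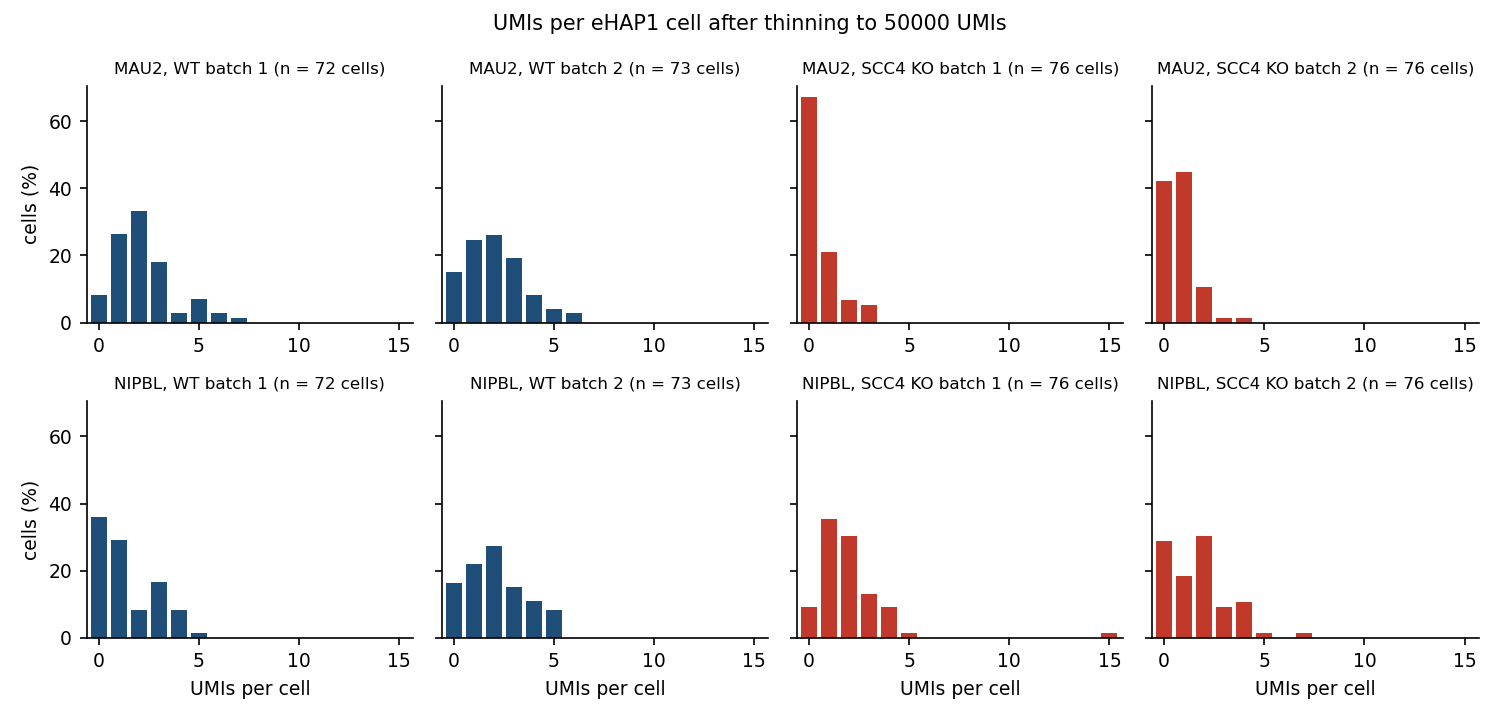
Share of cells (vertical axis, %) by the number of UMIs of MAU2 (top) and NIPBL (bottom) per cell after thinning to 50000 UMIs, for WT (blue) and SCC4 KO (red) batches. In SCC4 KO, 67.1% and 42.1% of cells have no MAU2 UMI, and 1 cell of KO batch 1 has 15 NIPBL UMIs.

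The cell-to-cell spread of most of these genes was close to that of counting. The coefficient of variation (CV) was computed over cells scaled to the median depth and divided by the CV that counting alone would give at the same mean. The median of this ratio over genes of at least 1 UMI per cell was between 1.09 and 1.14 in the 4 eHAP1 batches. RAD21 had CVs of 0.220 and 0.187 in WT and of 0.234 and 0.194 in SCC4 KO, with ratios from 1.07 to 1.20. STAG2 had CVs of 0.210 and 0.159 in WT and of 0.213 and 0.188 in SCC4 KO, with ratios from 1.03 to 1.28. SMC1A had ratios from 1.02 to 1.13. SMC3 had ratios of 0.906 in WT and 0.959 in SCC4 KO in batch 1, and of 1.03 and 1.16 in batch 2.

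NIPBL had the highest ratio to counting of the 7 genes in the first batch of each genotype. Its CV was 0.880 and 0.432 in WT and 0.876 and 0.622 in SCC4 KO. Its ratio to counting was 1.42 and 0.995 in WT and 1.51 and 1.31 in SCC4 KO, above 95.2% and 97.4% of the 8099 and 7603 genes with at least 1 UMI per cell in the first batches. In KO batch 1 the value rested on 1 cell with 22 NIPBL UMIs among 79193, and without it the CV was 0.507 and the ratio 0.834. In WT batch 1 the ratio was 1.38 without its highest cell. MAU2 had ratios of 1.01 and 1.09 in WT and of 1.27 and 0.925 in SCC4 KO. STAG1 had a ratio of 1.51 in KO batch 2, where 1 cell held 11 of the 72 UMIs, and of 0.860 without that cell. Across cells of a batch, Spearman's rho of CPM between pairs of the 7 genes ranged from -0.289 to 0.280, over 73 to 77 cells that share a library and differ in depth.

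**Figure D4:**
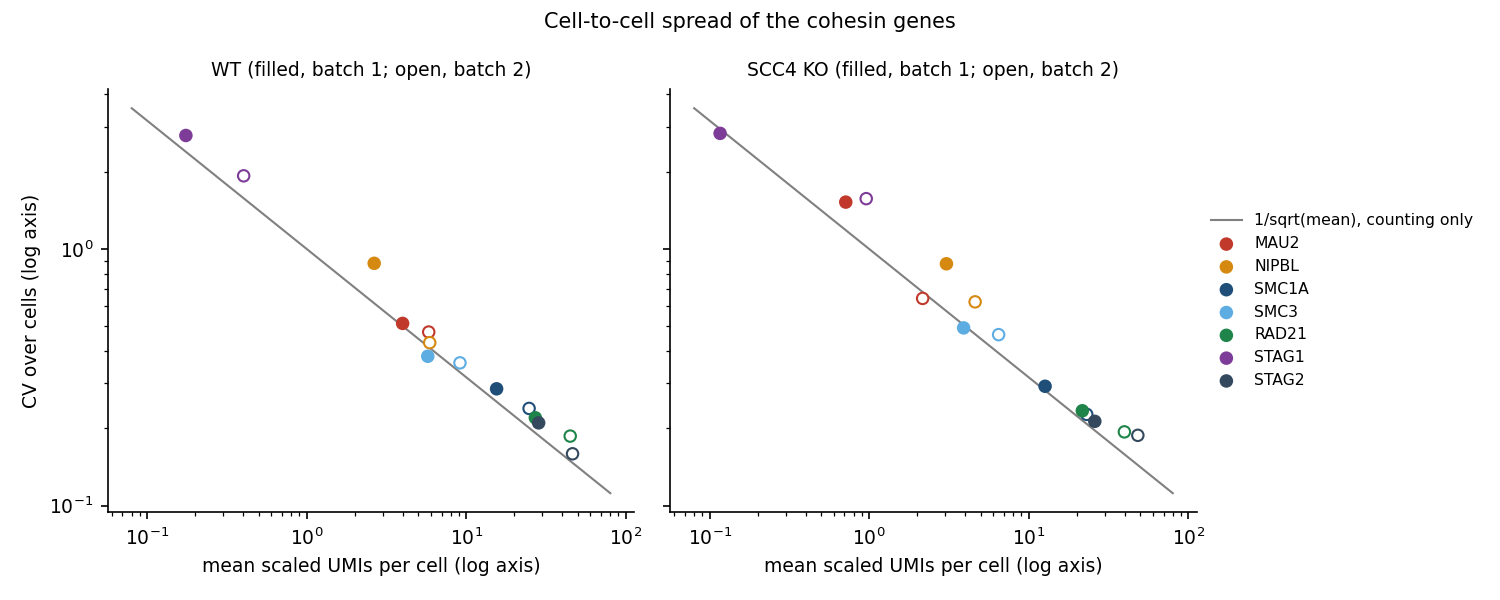
Coefficient of variation over cells (log axis) against the mean number of scaled UMIs per cell (log axis) for the 7 genes in WT and SCC4 KO eHAP1 cells. Points of the ring genes and STAG2 follow the line that counting alone gives for cells of equal depth, whereas NIPBL stands above it at a CV of 0.880 in WT batch 1 and 0.876 in KO batch 1.

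In HEK293T cells, the level of these genes depended on the assay. Of the 7 genes, 1 was higher and 3 were lower in LAST-seq than in CEL-seq2 by edgeR, where 16.0% of the 19276 genes tested passed, 6.75% as higher and 9.23% as lower. The median log2 fold change was -0.31 for the 7 genes and -0.33 over all genes tested, and scaling by total UMIs alone moved the latter to -0.68 and the share of calls that were higher from 42.2% to 22.7%. The 2 pools of an assay also differ in their spike-in mixes, so their spread includes any effect of the mix. Read depth was unequal as well, at 558917 to 741686 reads per cell in the LAST-seq pools and 359989 to 516474 in the first CEL-seq2 pool, with medians of 4.23 and 4.01 reads per UMI over genes in the LAST-seq pools and 2.34 in that CEL-seq2 pool. Its part in the differences between assays was not tested.

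MAU2 was the gene with more counts in LAST-seq. It was at 91.9 and 83.5 CPM in the LAST-seq pools and at 53.4 and 24.7 CPM in the CEL-seq2 pools. The log2 fold change was 1.54 (SE 0.38, edgeR, Benjamini-Hochberg adjusted p = 0.0098). With total UMIs alone as the scale it was 1.16 and did not pass (edgeR, adjusted p = 0.083). NIPBL went the other way, at 28.1 and 33.1 CPM in LAST-seq and at 176.3 and 136.0 CPM in CEL-seq2. Its log2 fold change was -1.99 (SE 0.35, edgeR, adjusted p = 0.00084). MAU2 therefore took 76.6% and 71.6% of the loader UMIs by LAST-seq and 23.3% and 15.4% by CEL-seq2.

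SMC3 showed the same direction as NIPBL. It was at 62.5 and 56.3 CPM in LAST-seq and at 375.8 and 319.4 CPM in CEL-seq2, with a log2 fold change of -2.20 (SE 0.32, edgeR, adjusted p = 0.00022). STAG1 had 3 and 7 UMIs by LAST-seq and 42 and 51 by CEL-seq2, or 2.11 and 4.64 against 27.0 and 35.0 CPM. Its log2 fold change was -2.84 (SE 0.66, edgeR, adjusted p = 0.0070), which did not pass without the second CEL-seq2 pool (adjusted p = 0.064).

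SMC1A, RAD21 and STAG2 did not pass the test between assays. SMC1A was at 178.3 and 265.6 CPM in the LAST-seq pools and at 334.6 and 357.9 CPM in the CEL-seq2 pools, with a 95% interval of the log2 fold change from -0.98 to 0.37. RAD21 was at 220.4 and 270.9 CPM with LAST-seq and at 312.7 and 228.7 CPM in CEL-seq2, with an interval from -0.43 to 0.87. STAG2 was at 244.9 and 321.2 CPM in LAST-seq and at 246.4 and 288.5 CPM in CEL-seq2, with an interval from -0.26 to 1.09. In all 3, a difference of 1.5-fold lies within the interval. By LAST-seq the order of the 7 genes in both pools was STAG2, RAD21, SMC1A, MAU2, SMC3, NIPBL and STAG1, with overlapping counting intervals for STAG2 and RAD21 and for RAD21 and SMC1A in both pools, and for MAU2 and SMC3 in pool 2. The ratio of SMC1A to SMC3 UMIs, whose proteins pair 1 to 1, was 2.85 and 4.72 with LAST-seq and 0.890 and 1.12 with CEL-seq2.

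**Figure D5:**
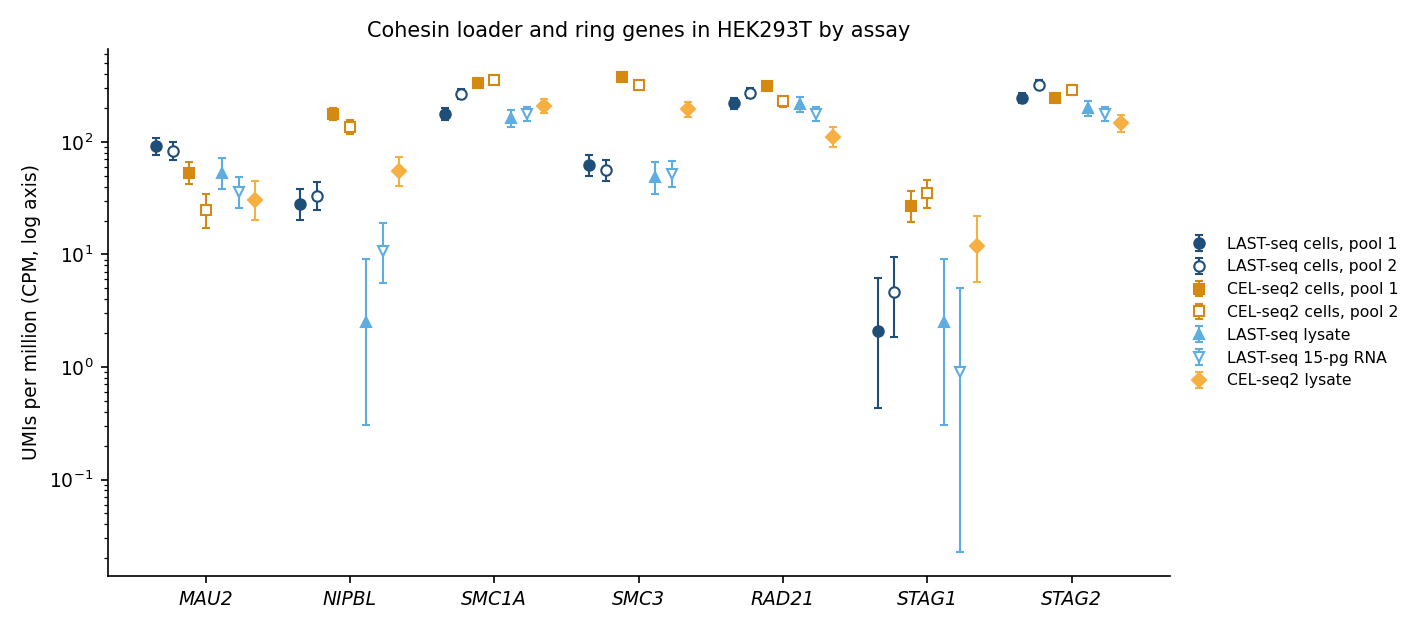
Level of each gene in CPM (log axis) in the HEK293T libraries, with exact Poisson 95% intervals. For NIPBL, SMC1A, SMC3 and STAG1 the CEL-seq2 cell pools lie above the LAST-seq cell pools, and for MAU2 they lie below. SMC1A did not pass the test between assays. For RAD21 and STAG2 the cell pools of the assays overlap, within 220.4 to 321.2.

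Other genes of the pathway also differed between the assays. Of the 10 genes that release, acetylate, protect or cleave cohesin, 2 were lower and 1 was higher in LAST-seq, beside 9.23% lower and 6.75% higher over all genes tested. The largest change was that of ESCO1, which acetylates SMC3, at 6.32 and 12.6 CPM against 76.6 and 70.1 CPM in CEL-seq2 (log2 fold change -2.60, edgeR, adjusted p = 0.00086). Among the boundary and partner genes, MED1, a Mediator subunit, was at 5.62 and 15.9 CPM against 102.3 and 64.6 CPM in CEL-seq2 (log2 fold change -2.58, edgeR, adjusted p = 0.0013). Of the 14 genes of condensin and SMC5/6, 5 were lower, beside the same 9.23% over all genes, and NCAPG and SMC4, both condensin subunits, had log2 fold changes of -3.90 and -3.58 (edgeR, adjusted p = 2.7e-05 for both). Neither of the 2 meiotic genes tested passed, nor did the 3 tested neighbours of MAU2 or the 4 tested copies and antisense transcripts.

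In lysate, NIPBL and SMC3 were again lower by LAST-seq than by CEL-seq2. There NIPBL had 2 UMIs in 10 wells by LAST-seq and 47 by CEL-seq2, or 2.51 and 55.6 CPM. SMC3 was at 48.9 CPM by LAST-seq and at 195.1 CPM by CEL-seq2. MAU2 was at 52.6 CPM by LAST-seq and 30.8 CPM by CEL-seq2, with intervals of 37.9 to 71.1 and 20.1 to 45.1 CPM that overlap. In the 15-pg RNA wells by LAST-seq, MAU2 was at 36.1, NIPBL at 10.8, SMC3 at 52.3 and STAG1 at 0.902 CPM, the last from 1 UMI. These libraries have no replicates, so no test was made.

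The spread over the 10 cells of a HEK293T pool also differed by assay. The median ratio of the CV to that of counting was 1.01 in both LAST-seq pools and 1.36 and 1.35 in the CEL-seq2 pools. RAD21 had ratios of 1.64 and 0.757 by LAST-seq and of 3.50 and 2.04 by CEL-seq2. SMC1A had 1.32 and 1.52 by LAST-seq and 2.82 and 4.84 by CEL-seq2, the latter above 98.6% of genes with at least 1 UMI per cell. STAG2 had 2.35 and 1.16 by LAST-seq and 1.95 and 2.09 by CEL-seq2, so its values overlapped. MAU2 stayed between 0.928 and 1.12 in all 4 pools. No test was made, as 10 cells of 1 pool are not replicates of an assay.

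The transcripts of the 7 genes are long and most are poor in GC. Among genes tested between assays that had a transcript model, MAU2 stood at the percentile 82.0 of GC content with 57.2% GC, whereas SMC3 stood at 6.72 with 37.3% and STAG2 at 4.79 with 36.6%. NIPBL, at 10425 bases, and SMC1A, at 9710 bases, stood above the percentile 96 of length. Across 19192 genes the fold change between assays had a Spearman's rho of 0.129 with GC content and of -0.038 with length, over genes that share all 4 libraries. The part of GC content and length in the differences between assays was not tested.

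SMART-seq counts reads along the whole transcript, so its levels are given as reads per kb of transcript in 1000000 reads (RPKM). Before these values are read, the wells have to be set against each other. The 6 single cells were near-identical to 6 of the 16 wells of the second lysate table. Their mean squared difference over the sum of counts, which is 1 for repeat counts of the same material, was between 0.94 and 1.0, against 11.5 to 50.6 for 487 unrelated pairs. These 6 wells therefore carry the label of a cell and of a lysate. Among the wells of the first lysate, 3 pairs were also near-identical, at 1.03 to 1.20.

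In the 6 wells labelled as cells MAU2 had 0 of 4897271 reads, which allows up to 0.613 reads in 1000000 by counting alone. SMC3 was the highest of the 7 genes at 53.5 RPKM, followed by RAD21 at 18.3 and SMC1A at 13.8. NIPBL was at 2.29 RPKM with reads in 3 of 6 wells, and STAG1 had 10 reads in 1 well. In the other 10 wells of the second lysate table MAU2 had between 0 and 36 reads, with reads in 6 wells. In the 10 wells of the first table it had between 0 and 34, with reads in 7. The 3 near-identical pairs of the first table were kept as separate wells in its values. SMC3 was the highest there too, at 72.8 and 68.5 RPKM, and MAU2 the lowest, at 2.13 and 2.00 RPKM. Full-length counting thus placed MAU2 below NIPBL, at 4.94 and 4.84 RPKM in these wells, as CEL-seq2 did in UMIs and LAST-seq did not.

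Across the 11 UMI libraries, the genes whose log2(CPM + 1) followed each member most closely were listed among 14413 genes. They were SAAL1 and LRR1 for MAU2 (Pearson's r of 0.973 and 0.940), SUPT20H and TLK1 for NIPBL (0.976 and 0.973), and BDP1 and DNMT1 for SMC3 (0.984 and 0.984). For SMC1A they were UBXN2A and CEP55 (0.970 and 0.970), for RAD21 ZSCAN9 and VCL (0.956 and 0.952), for STAG1 ZDHHC2 and ICE2 (0.958 and 0.955), and for STAG2 PMS2P4 and RPRD1B (0.959 and 0.947). None of the 7 genes was among these. The libraries differ in assay and cell line, so the likeness describes these libraries only.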

How the data were processed

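Numbers of UMIs or reads per gene and well were taken as deposited. The authors demultiplexed the reads with bcl2fastq 2.20 (per the labels), aligned them to GRCh38 with spike-in sequences and counted reads and UMIs in exons with zUMIs, with reads subsampled to an equal depth for the assays per the methods, though the deposited reads per well still differ between assays. Empty or contaminated eHAP1 wells had been removed. Whether the eHAP1 counts were adjusted by ComBat-seq, and whether counting used the strand, is not given in the sources used here. Spike-in rows were left out. Ensembl identifiers were matched to symbols by GENCODE v44, which held 99.5% to 99.7% of them.

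UMIs were summed over the wells of each library or eHAP1 batch. Genes with at least 0.1 UMI per cell were tested by edgeR 4.0.16 (TMM, quasi-likelihood test, Benjamini-Hochberg adjusted p under 0.05) in R 4.3.3, with DESeq2 1.42.0 as an alternative. The batch numbers of eHAP1 were not treated as pairs, since the labels do not say whether they match between genotypes. The deviations of batch 1 from the genotype means correlated at 0.018 between WT and SCC4 KO over 15574 genes. Counts already adjusted for batch could give such a value for paired batches too, so it cannot settle the pairing. On simulated counts for the SCC4 KO comparison, with the spread estimated from the eHAP1 batches, edgeR recovered 94 of 200 genes changed by 2-fold with 3 false calls, and 152 of 200 changed by 4-fold with 4. For the assay comparison it recovered 0 of 200 at 2-fold and 109 of 200 at 4-fold. Alternatives covered scaling, filters, each batch left out, the block, cell depth and, chosen after seeing the data, the spread of the HEK293T pools and sums over both batches. Binomial and Poisson intervals are exact. Python 3.11.15, scipy 1.17.1 and pandas 2.3.3 were used.

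Besides the 7 genes, the text names per gene list at most 3 genes with the largest change among those past the test, or the highest where none passed, as well as tested neighbours and copies, and the 2 most alike genes per member. WAPL, CTCF, ESPL1, PAX2, LHX1, NEFL and NEFM are named outside this rule, after their values were seen. The members and lists were chosen with earlier results of these data known. 1 gene of the boundary and partner list is not reported here, and that list is given without counts. Proteins were not analysed here.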

Additional observations from a re-analysis of the deposited data

Results flagged for a closer look

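For NIPBL the log2 ratio of SCC4 KO to WT CPM, with 0.5 UMI added, was 0.27 in batch 1 and -0.43 in batch 2, and for STAG1 it was -0.51 in batch 1 and 1.19 in batch 2. Both were looked at again because the batches moved in opposite directions. The difference between batches was not tested, since each genotype has 1 library per batch. For STAG1, 1 cell held 11 of the 72 UMIs of KO batch 2. The other 5 genes had the same sign in both batches.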

How the results depend on the processing

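For SCC4 KO against WT, MAU2 and SMC3 kept their direction and call under scaling by RLE or by total UMIs, DESeq2, no filter or filterByExpr, only cells of at least 50000 UMIs, thinned cells, the replicate block and each batch left out. With the spread of the HEK293T pools, chosen after seeing the data, 688 genes passed in place of 4430, and 1 of the 7 genes. SMC3 (-0.54), RAD21 (-0.29) and SMC1A (-0.26) then lost their call, by the construction of a wider spread. The rule of 2-fold in every pairing left 1332 genes and 1 of the 7. Without a filter 6875 genes passed, and SMC1A did not (-0.25, adjusted p = 0.053). In thinned cells SMC1A was at -0.17 and did not pass, and NIPBL reversed to 0.016. With 1 batch left out, between 3184 and 4032 genes and between 2 and 5 of the 7 genes passed (3184 genes without WT batch 2, and 2 of the 7 without KO batch 1), and the lone batch was assumed to vary like the other genotype. The log2 fold changes then ranged from -2.23 to -1.62 for MAU2, from -0.39 to 0.10 for NIPBL, from -0.31 to -0.19 for SMC1A, from -0.62 to -0.42 for SMC3, from -0.35 to -0.22 for RAD21, from -0.77 to 1.30 for STAG1 and from -0.12 to -0.019 for STAG2. NIPBL reversed without WT batch 2 (0.10) and without KO batch 2 (0.03), and STAG1 without KO batch 2 (-0.77). The cause of these changes was not tested. The replicate block gave 4957 genes and 4 of the 7. As the labels do not say whether the batch numbers pair the samples, this is a fit on a shared number only. Between assays, scaling by total UMIs alone reversed RAD21 to -0.14 and took the call from MAU2 (1.16), and with 1 pool left out 2419 to 2637 genes and 3 or 4 of the 7 passed, with STAG1 between -3.48 and -2.42 (not passing at -2.54). In all, 131 of 147 alternative fold changes of the 7 genes kept direction and call, and 29 of 60 alternative values of spread, share or detection moved by more than the spread between batches. The depth of 50000 UMIs per cell limits the values of MAU2 in SCC4 KO and of STAG1, at a mean under 1 UMI per cell.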
